A study of Mus musculus with 6 samples.

Results

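Neuropilins and the semaphorins and plexins that work with them were followed gene by gene through the cell types of the bleomycin-injured mouse lung. The 6 genes were Nrp1, Nrp2, Sema3c, Sema3f, Plxna1 and Plxna4, out of 32285 genes in the files, and they were picked by symbol with earlier results of these data known. Nrp1 was of interest because of its level in T cells of ipilimumab-treated and IgG1-treated mice, so that contrast is given here as a description without a test. The samples were the right lungs of 6 male hCTLA4 mice, a humanized knock-in line that carries the part of the human CTLA4 gene for the ligand-binding and membrane-spanning stretches of this immune checkpoint protein. All 6 mice were 12 weeks old and had lung fibrosis induced with oropharyngeal bleomycin at 1.25 U/kg, given in 2 doses 2 weeks apart, so no uninjured lung is part of the comparison. From day 21 after the second bleomycin dose, for 4.5 weeks, 3 mice received IgG1 isotype control antibody and 3 received ipilimumab, an antibody that blocks human CTLA4, at 5 mg/kg. Each lung was digested with collagenase and DNase into a suspension of cells and gave 1 10x Genomics 3′ single-cell library, so 1 mouse is 1 replicate throughout.

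Neuropilins are single-pass surface receptors with a short cytoplasmic tail. They bind class 3 semaphorins, which are secreted guidance ligands, and hand the signal to plexins, whose cytoplasmic part acts on small GTPases and the cytoskeleton. They also bind VEGF beside the VEGF receptors, and Nrp1 is therefore known from endothelium as well as from axon guidance. In lymphocytes Nrp1 is best known as a surface marker of many thymus-derived regulatory T cells, and in mice it is also found on some innate-like T cells and on group 2 innate lymphoid cells.

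In the GENCODE annotation of mm10 (GRCm38) Nrp1 (ENSMUSG00000025810) lies on the plus strand of chromosome 8, from 128358604 to 128503363. Nrp2 (ENSMUSG00000025969) lies on the plus strand of chromosome 1, from 62703285 to 62818695. The ligand genes are Sema3c (ENSMUSG00000028780), on chromosome 5 from 17574281 to 17730268 on the plus strand, and Sema3f (ENSMUSG00000034684), on chromosome 9 from 107681500 to 107710475 on the minus strand. The plexin genes are both on the minus strand of chromosome 6, Plxna1 (ENSMUSG00000030084) from 89316314 to 89362620 and Plxna4 (ENSMUSG00000029765) from 32144268 to 32588192. All 6 are protein-coding genes, and the 3′ libraries read the end of each transcript, so isoforms were not told apart and levels were not compared between genes.

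Libraries held 37666042 to 48612412 unique molecular identifiers (UMIs, each 1 captured transcript molecule), and 3268 to 4348 cells per mouse were used, 24258 in all. Median depth was 6001.5 to 7955.5 UMIs per cell, and any 2 libraries shared 0 to 7 cell barcodes. Ipilimumab replicate 1 stood apart, with 22056 barcodes of at least 100 UMIs against 4834 to 6230 in the other libraries and 78.9% of its UMIs in called cells against 92.4 to 93.1%. It also gave 250 of the 603 fibroblast-like cells and 157 of the 216 cells of the alveolar type 2-like clusters. Cells were clustered without the 6 genes, the rest of the neuropilin pathway and 8 marker genes, and clusters were named from fixed marker lists. For 12 classes every mouse had at least 10 cells. The cluster that scored highest for the plasma cell markers went against that name, since its summed alveolar macrophage markers exceeded its plasma cell markers in IgG1 replicate 3 and in ipilimumab replicates 1 and 3, and it is called the Igha-led cluster here. Levels are UMIs of a gene summed over the cells of a class in 1 mouse and scaled to 1000000 UMIs of all genes in that class (CPM).

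Nrp1 in T-like cells was higher with ipilimumab in each of the 3 mice than in any IgG1 mouse. The T-like cells were 5260 in number, 752 to 982 per mouse, and held 1540 Nrp1 UMIs. The IgG1 mice had 20.4, 23.7 and 17.1 CPM and the ipilimumab mice 42.7, 36.3 and 39.1 CPM. The means were 20.4 ± 3.32 (SD, n = 3) and 39.3 ± 3.19 CPM (SD, n = 3), a 1.93-fold ratio, and the lowest ipilimumab mouse lay above the highest IgG1 mouse. Of the 12131 genes measured in T-like cells, 5.37% were likewise higher in all 3 ipilimumab mice, and Nrp1 was singled out from these same cells, so the separation is not evidence of its own. No gene was called between treatments in T-like cells (0% of those tested by edgeR's quasi-likelihood test, 776 with an unadjusted p under 0.05).

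More T-like cells held Nrp1 with ipilimumab. A Nrp1 UMI was found in 9.44% ± 0.25 of T-like cells (SD, n = 3 mice) with IgG1 and in 15.4% ± 2.87 with ipilimumab. After thinning every cell to 1000 UMIs, which sets all cells to the same depth, the shares were 1.84% ± 0.18 and 3.50% ± 0.36. Cells with a Nrp1 UMI held 2.15 ± 0.28 of them with IgG1 and 2.45 ± 0.14 with ipilimumab, and these groups overlapped. In B-like cells, which should lack the gene, 0.24% of cells had a Nrp1 UMI, and in NK-like cells 1.48% did. Median depth was 7955.5 to 10097 UMIs per T-like cell, 5230 to 6627.5 per B-like cell and 5658 to 6843 per NK-like cell in the 6 mice. Free RNA of the suspension, taken from empty barcodes, would give 1.46 to 6.64 Nrp1 CPM in T-like cells, below the level of every mouse.

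The T-like cells formed 3 clusters, and Nrp1 was concentrated in the one led by Ctla4, Icos and Ikzf2 (the Ctla4-led cluster). Ctla4 restrains T cell activation and Icos is a costimulatory receptor of activated T cells. Ikzf2 encodes Helios, a transcription factor of many regulatory T cells. In this cluster of 107 to 301 cells per mouse, Nrp1 was 62.8, 72.6 and 66.0 CPM with IgG1 and 104.4, 113.0 and 98.2 CPM with ipilimumab. All 3 ipilimumab mice lay above the IgG1 mice, with means of 67.1 ± 4.99 and 105.2 ± 7.41 CPM, and 6.35% of the genes of this cluster separated in the same direction. The cluster made up 16.2% ± 4.95 of T-like cells with IgG1 and 24.0% ± 5.88 with ipilimumab, and it held 72.8% of the difference in Nrp1 between the groups, 61.9 to 94.6% leaving out 1 mouse. Its size overlapped between the groups, at 12.5, 21.8 and 14.2% with IgG1 and 19.6, 21.7 and 30.7% with ipilimumab, and without ipilimumab replicate 3 the ipilimumab mean was 20.7%. To split the difference, size was taken instead as the share of all T-like UMIs in the cluster, which depends on depth as well as cell numbers. Held at the mean UMI share of the cluster, its higher level gives 8.83 CPM of the difference. Held at the mean level, the larger UMI share of the cluster gives 5.31 CPM. The share of its cells with a Nrp1 UMI was 36.5% ± 2.14 and 38.6% ± 3.95 before thinning and 6.93% ± 0.34 and 9.41% ± 0.31 after it.

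The other T-like clusters held less. The cluster led by Ccl5, Gzma and Nkg7, genes of cytotoxic lymphocytes, had 19.3, 13.04 and 19.7 CPM with IgG1 and 51.6, 19.7 and 30.3 CPM with ipilimumab. The groups met at 19.7 CPM and overlapped, and ipilimumab replicate 1 was the highest by far. This cluster gave 25.8% of the difference, but 5.22% without ipilimumab replicate 1. The largest cluster, led by Lef1, a transcription factor of naive and memory T cells, had 9.5, 2.6 and 2.5 CPM with IgG1 and 7.8, 7.1 and 3.7 CPM with ipilimumab, and gave 1.40% of it.

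**Figure D1:**
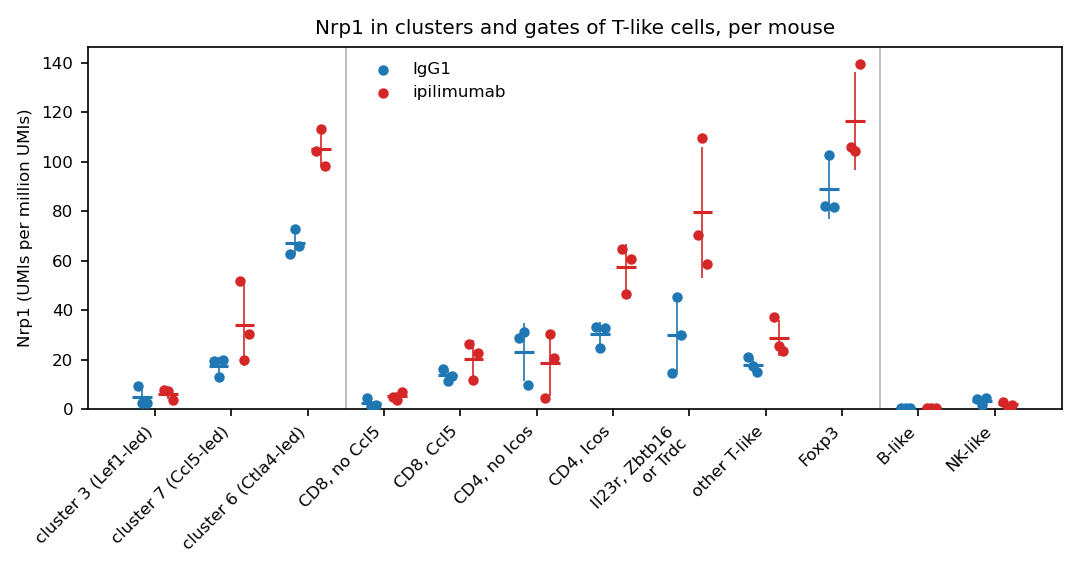
Nrp1 level (CPM) in the 3 T-like clusters, the 7 T-like gates, B-like and NK-like cells. Each point is 1 mouse, colored by treatment, with the group mean as a dash and the SD as a line. The Ctla4-led cluster (cluster 6) and the Foxp3-positive gate have the highest means, and B-like and NK-like cells lie near 0.

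To ask which T cells carried the difference, the T-like cells were also split into 7 gates that exclude each other and use no neuropilin gene. A gate is set by whether a UMI was seen, so a cell whose Foxp3 or Icos transcript was missed falls into another gate. The paper reports higher Icos in T cells with ipilimumab, so cells may shift between the CD4 gates with and without Icos. Such shifts were not tested. Most of the difference lay in 3 gates. CD4 cells with Icos but no Foxp3 UMI held 36.8% of it, cells with Il23r, Zbtb16 or Trdc held 26.0%, and Foxp3-positive cells held 25.3%. Leaving out 1 mouse, these shares were 31.8 to 41.6%, 19.99 to 31.5% and 23.0 to 26.9%. Foxp3 is the defining transcription factor of regulatory T cells. Il23r marks cells that can answer IL-23, Zbtb16 encodes PLZF of innate-like T cells, and Trdc is the constant region of the γδ T cell receptor.

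In the CD4 gate with Icos, Nrp1 was 33.2, 24.7 and 32.9 CPM with IgG1 and 64.6, 46.4 and 60.7 CPM with ipilimumab. The groups did not overlap, as for 5.98% of the genes in the gate, and the means were 30.3 ± 4.80 and 57.2 ± 9.60 CPM. The gate was 16.1% ± 1.10 of T-like cells with IgG1 and 19.9% ± 1.27 with ipilimumab. The higher level gave 4.93 CPM of its difference and the larger share of T-like UMIs 1.97 CPM.

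In the gate with Il23r, Zbtb16 or Trdc, Nrp1 was 14.6, 45.1 and 29.9 CPM with IgG1 and 70.5, 109.4 and 58.4 CPM with ipilimumab. The groups did not overlap, as for 4.97% of the genes in the gate, although both spread widely, with means of 29.9 ± 15.3 and 79.5 ± 26.6 CPM. Its size was much the same in both groups, 11.0% ± 2.24 and 10.7% ± 0.90 of T-like cells. The whole of its difference came with the level, 5.96 CPM against −0.56 CPM for its share of T-like UMIs.

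Foxp3-positive cells had the highest Nrp1 of the gates, 81.9, 102.8 and 81.8 CPM with IgG1 and 105.9, 104.1 and 139.3 CPM with ipilimumab. The groups were close, with 102.8 CPM in the highest IgG1 mouse and 104.1 CPM in the lowest ipilimumab mouse, and 9.54% of the genes of this gate separated in the same direction. Here the share of T-like UMIs counted for more than level, 3.45 CPM of the difference of the gate against 1.51 CPM. The gate was 3.18% ± 0.70 of T-like cells with IgG1 and 4.86% ± 0.48 with ipilimumab, 24 to 50 cells per mouse. Its median depth was 9023.5, 9225 and 10703 UMIs per cell with IgG1 and 11606, 11286.5 and 8217 with ipilimumab. The 3.45 CPM therefore mixes cell numbers with depth.

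The remaining 4 gates gave little. Other T-like cells, with UMIs of neither or both of the CD4 and CD8 coreceptors, were at 21.0, 17.4 and 15.1 CPM with IgG1 and 37.1, 25.5 and 23.4 CPM with ipilimumab, without overlap, as for 6.04% of genes, and gave 6.55% of the difference. CD8 cells with Ccl5, a chemokine of effector CD8 T cells, gave 6.15%, at 16.3, 11.5 and 13.4 CPM against 26.5, 11.8 and 22.5 CPM. Those groups overlapped. CD8 cells without Ccl5 had 1.29 to 6.89 CPM and gave 2.56%, and CD4 cells with neither Icos nor Foxp3 went the other way, −3.41%, with groups that overlapped.

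**Figure D2:**
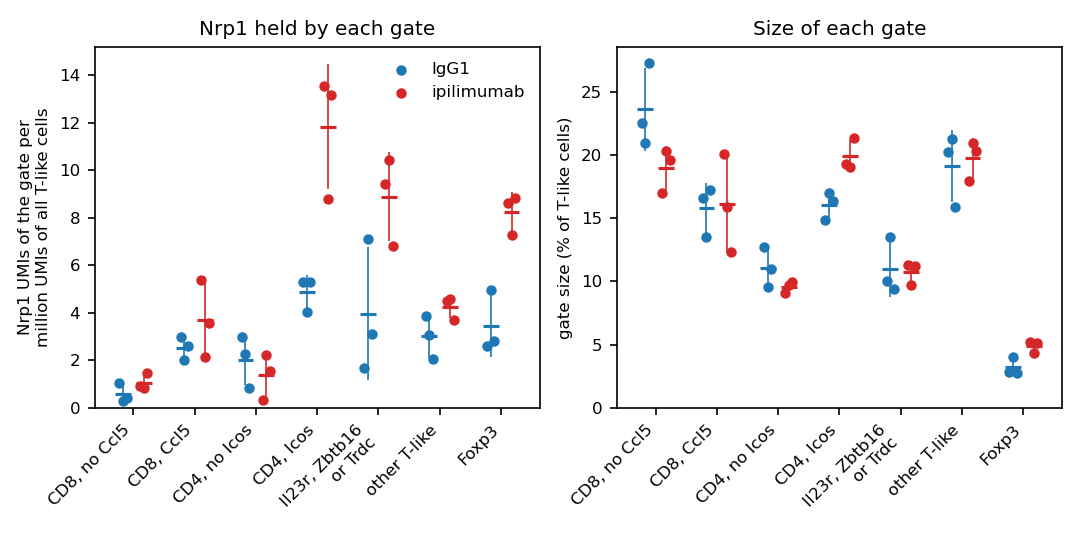
Left, Nrp1 UMIs of each of the 7 gates over the UMIs of all T-like cells (CPM); right, size of each gate as a percent of T-like cells. Each point is 1 mouse, colored by treatment, with the group mean as a dash and the SD as a line. The CD4 gate with Icos, the gate with Il23r, Zbtb16 or Trdc and the Foxp3-positive gate show the widest gaps on the left, and on the right the CD4 gate with Icos and the Foxp3-positive gate are larger in all 3 ipilimumab mice than in any IgG1 mouse.

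Within the Ctla4-led cluster, 6 sub-clusters were told apart and differed among themselves. The highest Nrp1 was in the sub-cluster led by Il23r, Trdc, Cd163l1 and Zbtb16, 153.8 ± 30.1 CPM with IgG1 and 169.8 ± 55.4 CPM with ipilimumab, with overlapping groups in 130 cells. The sub-cluster with Il17a, the cytokine of type 17 T cells, had 76.5 ± 27.1 and 146.5 ± 31.8 CPM in 151 cells, without overlap. Only 8 of its cells came from IgG1 replicate 1. In another the groups nearly touched, with 51.6 CPM in the highest IgG1 mouse and 52.0 CPM in the lowest ipilimumab mouse, and in the other 3 they overlapped. The sub-clusters were cut from these cells and are small, and their values are given as a description. How many of all genes separated within a sub-cluster was not counted, so a lack of overlap there has no background to be read against.

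A few cells with many Nrp1 UMIs held a large share of the Nrp1 difference in T-like cells. More than 5 Nrp1 UMIs were found in 12 of 234 positive cells with IgG1, 4, 5 and 3 per mouse, and in 42 of 426 with ipilimumab, 14 in each mouse. These cells held 13.3 to 24.3% of the Nrp1 UMIs of the IgG1 mice and 30.7 to 41.4% of those of the ipilimumab mice. Without them Nrp1 was 16.6, 18.1 and 14.9 CPM with IgG1 and 30.6, 21.8 and 26.7 CPM with ipilimumab, still without overlap, with means of 16.5 ± 1.60 and 26.4 ± 4.37 CPM. Of the 54 cells, 17 were in the CD4 gate with Icos, 16 in the gate with Il23r, Zbtb16 or Trdc, 10 were Foxp3-positive, 6 were other T-like cells, 3 were CD4 cells without Icos, 2 were CD8 cells with Ccl5 and 0 were CD8 cells without Ccl5. All of them had a Cd3e UMI. A UMI of Cdh5, the endothelial cadherin, was found in 0% of them and in 0.54% of T-like cells with no Nrp1 UMI. The 606 T-like cells with 1 to 5 Nrp1 UMIs had it in 1.49%, and 54 cells are too few to tell such low shares apart. Chil3, an alveolar macrophage gene, was found in 33.3% of the 54 cells and in 28.9% of T-like cells with no Nrp1 UMI. The median doublet score of the 54 cells was 0.635 against 0.377. Icos was found in 90.7% of them, Ikzf2 in 66.7%, the proliferation gene Mki67 in 37.0% and Il23r in 25.9%. Their median depth was 11132.5 UMIs.

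Markers of other cell types were measured in the same T-like cells. Of 26 marker lists, 6 had summed levels that did not overlap between the groups. The list of group 2 innate lymphoid cells (ILC2s) was 388 to 590.0 CPM with IgG1 and 606 to 812 CPM with ipilimumab, the alveolar type 1 list 72.3 to 81.3 and 95.5 to 119.0 CPM, and the secretory cell list 2.6 to 11.0 and 23.1 to 88.1 CPM. The secretory list was not particular to T-like cells. It was higher without overlap also in B-like cells (4.0 to 13.6 and 28.8 to 160.8 CPM) and in NK-like, neutrophil-like and classical monocyte-like cells. In aerocyte-like and fibroblast-like cells it overlapped. The fibroblast list was 2.5 to 3.7 and 4.0 to 6.5 CPM, the plasmacytoid dendritic cell list was 78.0 to 99.5 and 63.7 to 71.5 CPM, and the T cell list itself was 3822 to 3833 and 3920 to 4127 CPM. The list of aerocytes, the capillary cells with most Nrp1, overlapped at 2.5 to 3.9 and 2.9 to 5.7 CPM. With T-like cells limited to those with under 0.3% of UMIs from markers of other types, the log2 ratio of Nrp1 was 0.96, against 0.95 for all T-like cells. That limit uses no ILC2, NK cell, plasma cell or cycling markers, so it cannot remove cells for their ILC2 markers.

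ILC2-like cells carried Nrp1 as well, in 45.9% of 61 cells. Their levels were 0, 205.5 and 52.0 CPM with IgG1 and 147.0, 111.3 and 89.1 CPM with ipilimumab. The groups overlapped, and with 1 to 17 cells per mouse these values are coarse.

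The other 5 genes were near the floor in T-like cells. Nrp2 averaged 2.03 CPM with IgG1 and 2.42 CPM with ipilimumab, and Sema3c 3.81 and 4.47 CPM. Plxna1 averaged 2.23 and 1.93 CPM, Sema3f 0.29 and 0.64 CPM, and Plxna4 0.34 and 0.19 CPM. The groups overlapped for all 5. With so few UMIs, and with Nrp1 singled out for this very contrast, the 5 genes do not serve as a comparison for Nrp1.

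Apart from treatment, Foxp3-positive CD4 T-like cells had more Nrp1 than Foxp3-negative CD4 T-like cells in 6 of 6 mice. The Foxp3-positive cells had 55.5, 89.1 and 110.6 CPM in the IgG1 mice and 138.0, 96.3 and 163.5 CPM in the ipilimumab mice. Their Foxp3-negative neighbours had 29.3, 23.8 and 24.1 CPM and 46.0, 51.4 and 48.1 CPM. No Foxp3-positive value was as low as any Foxp3-negative value. The means were 108.8 ± 38.1 and 37.1 ± 12.7 CPM (SD, n = 6), and the difference on the log2(CPM + 10) scale was 1.31 ± 0.45 (SD, n = 6). The exact two-sided sign-flip permutation test over the 6 mice gave p = 0.03125, the smallest it can give. The Foxp3-positive sums rest on 11 to 28 cells per mouse and the Foxp3-negative sums on 220 to 322.

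The T-like cells with a Nrp1 UMI differed widely from those without one. The 660 cells with a Nrp1 UMI were summed per mouse and set against the other 4600 with the mouse as a block, leaving Nrp1 itself out. Of 10763 genes tested with edgeR's quasi-likelihood test, 1883 (17.5%) were called higher and 1380 (12.8%) lower, 30.3% in all, where a call needs a Benjamini-Hochberg adjusted p under 0.05 and a log2 fold change beyond 0.3 in either direction. The comparison mixes subsets, and within the Ctla4-led cluster alone 36 of 7821 genes (0.46%) were called, 24 higher (0.307%) and 12 lower (0.153%), of which 34 were also called over all T-like cells.

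Most genes of the regulatory T cell list were higher in the cells with Nrp1. Of its 14 genes 13 were tested, Gpr83 being too low, and 12 were called higher and 0 lower, with a median log2 fold change of 1.87 over the 13 against −0.01 over all genes tested. Foxp3 rose by 2.38 ± 0.19 (log2, SE), from 6.57 to 39.3 CPM, and Ikzf2 by 1.72 ± 0.081, from 201 ± 30.1 to 723 ± 57.9 CPM (SD, n = 6). The immunosuppressive cytokine Il10 rose by 3.11 ± 0.26 and Lrrc32, which tethers latent TGF-β at the surface of regulatory T cells, by 2.78 ± 0.24. The IL-2 receptor chain Il2ra rose by 1.88 ± 0.15. Ctla4 rose by 1.61 ± 0.098, read as UMIs that aligned to the mouse gene in a line in which part of the gene is human. The costimulatory receptors Tnfrsf4, Tnfrsf9 and Tnfrsf18 were higher by 2.16, 1.87 and 0.81, Klrg1 by 1.92, Izumo1r by 1.08 and the integrin Itgae by 0.67, the last in 5 of 6 mice. Ikzf4 was at 0.39 ± 0.20, with an adjusted p of 0.143 (edgeR). Within the Ctla4-led cluster 3 of the list were called higher, Ikzf2, Il10 and Tnfrsf4, and the median of the list was 0.57.

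The 15 genes with the smallest p on the higher side all went up in 6 of 6 mice, by 1.26 to 2.16 on the log2 scale. S100a4, a calcium-binding protein of memory T cells, rose by 2.09 ± 0.087, from 288 ± 92 to 1305 ± 225 CPM, and Lgals1, a galectin, by 1.61 ± 0.055. The next were the integrins Itgb1 (1.97 ± 0.079) and Itgav (1.74), the memory marker Cd44 (1.26), the intermediate filament gene Vim (1.51), the myosin Myo1e (2.09), the actin-capping gene Capg (1.92) and the annexin Anxa2 (1.40). The others were Tnfrsf4, Ikzf2, the nuclear receptor Rora (1.42), Lgals3 (2.03), S100a11 (1.39) and Sh3rf1 (1.91). In the Ctla4-led cluster alone 8 of the 15 were called, Itgb1 (0.96), Itgav (0.69), Myo1e, S100a4, Tnfrsf4, Ikzf2, Lgals3 and Sh3rf1.

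The 15 genes with the smallest p on the lower side fell by 0.71 to 1.75 on the log2 scale. Lef1 fell by 1.60, from 1516 ± 138 CPM in cells without Nrp1 to 561 ± 139 CPM in cells with it. Kif1b fell by 1.73, Rras2 by 1.75, the phosphodiesterase gene Pde3b by 1.15 and Gpr18 by 1.71. Vps37b was also in the list, and the other 9 were ribosomal protein genes (Rps24, Rpl12, Rps29, Rps28, Rps27, Rps16, Rps19, Rplp1 and Rps7), with Rps24 lower by 0.92. Pde3b was the 1 gene of the 15 that was also called within the Ctla4-led cluster, where it fell by 0.69.

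**Figure D3:**
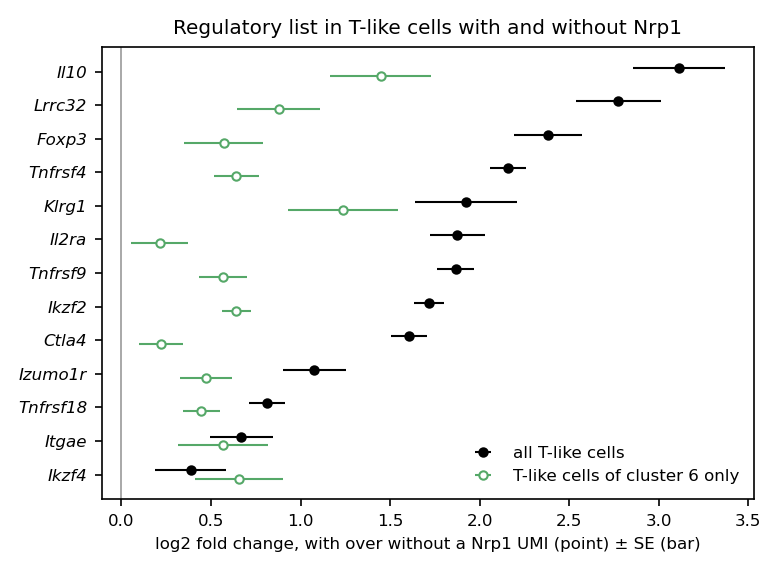
Difference (log2 fold change ± SE, horizontal axis) of the 13 tested regulatory T cell genes between T-like cells with and without a Nrp1 UMI, over all T-like cells and within the Ctla4-led cluster (cluster 6) alone. Values over all T-like cells lie right of 0 for all 13 genes, and most are smaller within the cluster.

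Cell by cell, the cells with Nrp1 were a mixture. A Foxp3 UMI was found in 15.6% of them and in 2.39% of the cells without Nrp1, Ikzf2 in 52.4 and 19.8%, Il2ra in 22.9 and 5.43%, and Ctla4 in 73.9 and 44.5%. Cd4 was found in 49.5 and 32.3% and Cd8a in 20.8 and 30.6%. Zbtb16 was found in 16.2 and 5.26%, Il23r in 11.5 and 2.80%, Gata3 in 45.8 and 23.8% and Mki67 in 18.0 and 4.41%. Trdc was the exception among the innate-like markers, at 4.39 and 5.26%.

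Some of these cells also held more UMIs of genes on the marker lists of other cell types. These lists are not exclusive to those types. The ILC2 list, with means of 434 CPM without Nrp1 and 1370 CPM with it, includes Rora, at 358 and 1064 CPM. The cDC1 list includes Itgae, which is also on the regulatory T cell list. Median depth was 8783 UMIs with Nrp1 and 8537.5 without it, the median doublet score 0.573 and 0.377, and 10.6 and 4.04% of cells had over 0.3% of UMIs from markers of other types. The fibroblast list was 7.8 to 18.3 CPM against 1.5 to 3.9 CPM, the ILC2 list 862.6 to 1841.7 against 326.3 to 591.5 CPM, and the cycling list 375.9 to 1010.0 against 97.5 to 336.9 CPM. The alveolar type 1 list was 102 to 272 against 66.2 to 91.5 CPM, the nonclassical monocyte list 151 to 229 against 89.9 to 118 CPM and the cDC1 list 35.8 to 67.1 against 16.8 to 30.6 CPM, all without overlap, and the migratory dendritic cell list was lower, 89.9 to 297 against 368 to 443 CPM. At least 2 UMIs of macrophage or monocyte markers were found in 52.9% of cells with Nrp1 and in 38.3% without it, and of endothelial, aerocyte or fibroblast markers in 54.1 and 55.7%. The blood endothelial and aerocyte lists overlapped, at 264.3 to 404.0 against 235.1 to 381.4 CPM and 1.0 to 12.6 against 2.8 to 4.2 CPM. Without the cells over 0.3%, 3118 of 10573 genes were called (29.5%). The ILC2 and cycling lists are not part of that 0.3%.

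Some genes of the neuropilin pathway moved with Nrp1 in T-like cells. Of the 38 other genes of the pathway 17 were tested, 9 were higher and 1 lower in cells with Nrp1, and the median log2 fold change was 0.54, against 17.5% higher, 12.8% lower and a median of −0.01 over all genes. The 9 were the semaphorins Sema4c (1.33), Sema4b (0.88) and Sema4d (0.46), the plexins Plxnc1 and Plxnd1 (0.86), and the intracellular partners Fes (1.15), Gipc1 (0.64), Mical1 (0.55) and Dpysl2 (0.38). Plxnc1 rose by 1.16 ± 0.097, from 51.3 to 125 CPM. Plxnd1 lost its call without the cells over 0.3% of UMIs from markers of other types (0.65, adjusted p = 0.139, edgeR). The VEGF ligand Vegfa fell by 1.43 ± 0.34. Of Nrp2, Sema3c and Plxna1, which had enough UMIs for the test, none was called, at 0.22, −0.24 and 0.74, and within the Ctla4-led cluster none of the 8 pathway genes tested was called.

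Across the lung, Nrp1 was highest in the capillary endothelium. Aerocyte-like cells, the Car4-positive and Ednrb-positive capillary cells of gas exchange, had 1884 to 2492 CPM in the 6 mice, 2139 ± 267 CPM (SD, n = 6), with a UMI in 88.8% of cells. Blood endothelial-like cells followed at 339 to 602 CPM and fibroblast-like cells at 141 to 260 CPM, and the ranges of these 3 classes did not overlap. Interstitial macrophage-like cells (91.3 CPM), alveolar macrophage-like cells (72.2 CPM), classical (55.6 CPM) and nonclassical (48.7 CPM) monocyte-like cells, the Igha-led cluster (33.7 CPM) and T-like cells (29.9 CPM) formed a chain in which each range overlapped the next. Neutrophil-like (6.76 CPM), NK-like (2.61 CPM) and B-like cells (0.47 CPM) lay below them.

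Nrp2, by contrast, was highest in the macrophage classes among the 12, and low in aerocyte-like cells. Interstitial macrophage-like cells had 103 to 325 CPM and alveolar macrophage-like cells 191 to 230 CPM, with overlapping ranges and a UMI in 89.3% of alveolar macrophage-like cells. Fibroblast-like cells had 83.8 to 155 CPM and blood endothelial-like cells 27.3 to 197 CPM. Aerocyte-like cells had 0 to 12.7 CPM, a range that overlapped those of T-like, B-like, NK-like and neutrophil-like cells. Among the classes with too few cells for the 12, migratory dendritic cell-like cells had a higher mean than either macrophage class, 442 CPM, with 84.7 to 702.3 CPM from 6 to 11 cells per mouse, and cDC2-like cells had 28.7 to 357.7 CPM.

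The ligands were endothelial. Sema3c had 1435 to 3061 CPM in blood endothelial-like cells, 2159 ± 560 CPM (SD, n = 6), with a UMI in 86.8% of cells. It had 224 to 482 CPM in aerocyte-like cells and 98.8 to 161 CPM in fibroblast-like cells, and these 3 classes did not overlap. Sema3f had the reverse order in endothelium, 338 to 672 CPM in aerocyte-like cells and 117 to 177 CPM in blood endothelial-like cells, with 5.07 to 20.3 CPM in fibroblast-like cells. In the rest of the 12 classes the mean stayed at or below 5.85 CPM for Sema3c and 0.69 CPM for Sema3f. Alveolar type 2-like cells, which had too few cells in 1 mouse to be among the 12, had 13.9 to 160 CPM of Sema3c and 0 to 39.7 CPM of Sema3f.

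Both plexins were highest in aerocyte-like cells too. Plxna1 was 144 to 228 CPM there and 46.8 to 96.3 CPM in blood endothelial-like cells, and the alveolar macrophage-like cells followed at 27.8 to 46.4 CPM. Plxna4 was 309 to 574 CPM in aerocyte-like cells and 160 to 297 CPM in blood endothelial-like cells, whose range overlapped that of interstitial macrophage-like cells, 7.74 to 190 CPM. Fibroblast-like cells had 17.2 to 104 CPM of Plxna4, and the rest of the 12 classes averaged at most 3.93 CPM. Alveolar type 2-like cells, with under 10 cells in 1 mouse and so outside the 12, had 0 to 224 CPM. Aerocyte-like cells were thus highest in 4 of the 6 genes, with Sema3c and Nrp2 highest elsewhere.

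**Figure D4:**
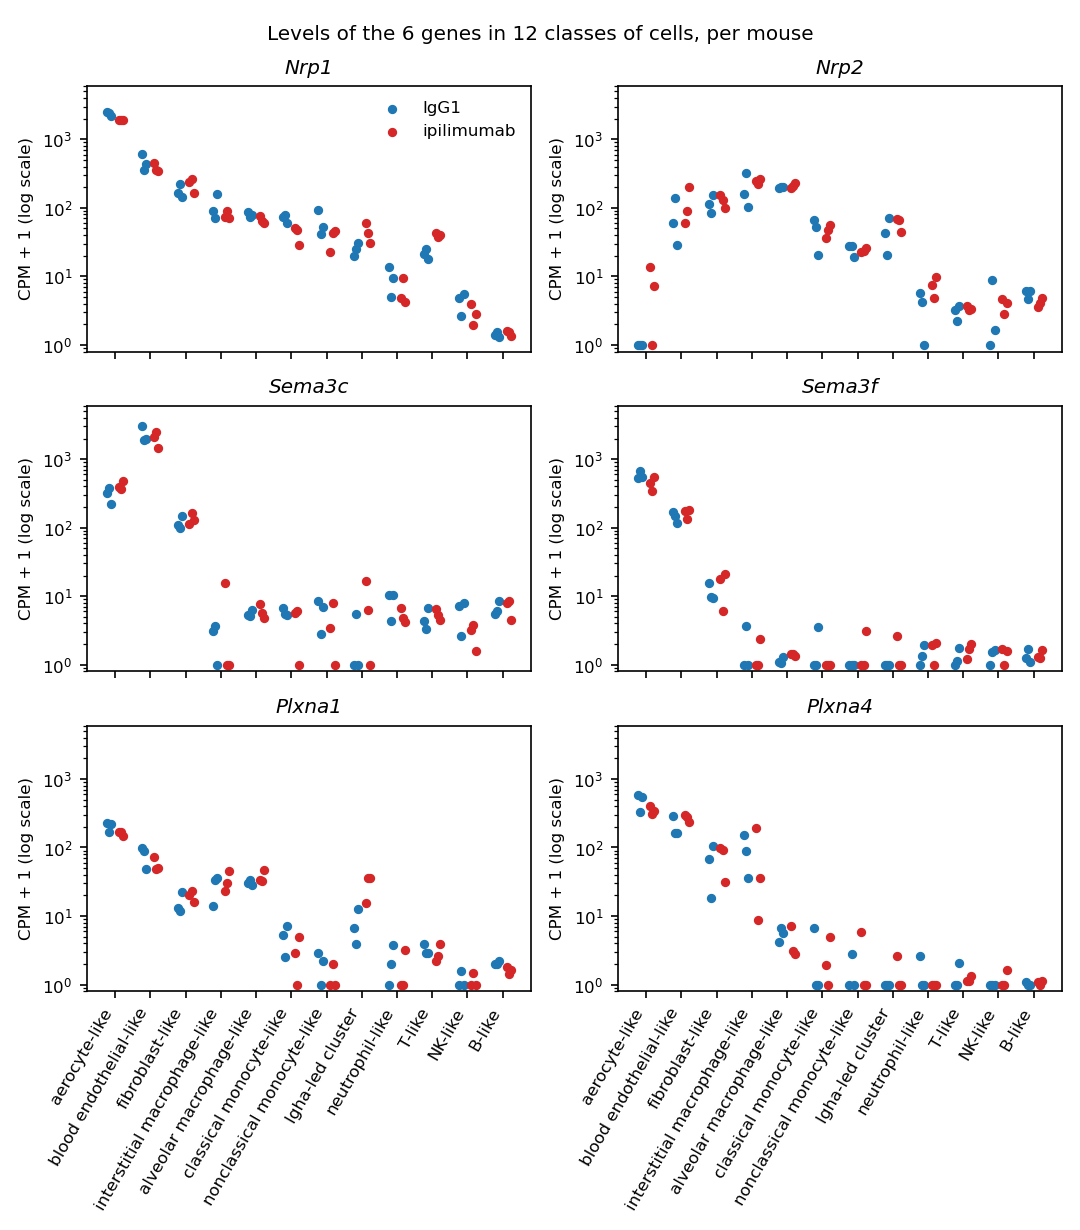
Level of each of the 6 genes (CPM + 1, log axis) in 12 classes, 1 panel per gene. Each point is 1 mouse, colored by treatment. Nrp1, Sema3f, Plxna1 and Plxna4 are highest in aerocyte-like cells, Sema3c in blood endothelial-like cells and Nrp2 in the macrophage classes.

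The genes whose pattern was most like that of Nrp1 over the 12 classes, by Pearson's r of the mean log2(CPM + 10) among 12545 genes, were Plscr3 (0.965), Ttc12 (0.958), Acvr2b (0.952), Lrrc58 (0.950) and Kank3 (0.943), each highest in aerocyte-like cells. For Nrp2 they were Myof (0.934), Deptor (0.934), Sh3pxd2b (0.922), Lonrf3 (0.920) and Slc39a14 (0.907). The 12 classes share the 6 libraries, and the classes with few cells are noisier.

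Outside T-like cells, none of the genes passed the test between treatments. The 6 genes gave 34 tests in 9 classes, of which 0 were called by edgeR's quasi-likelihood test and 8 had an unadjusted p under 0.05, and DESeq2 called 0. The lowest adjusted p was 0.265. Over all genes the same test called 49 of 5745 (0.853%) in aerocyte-like cells, 13 of 7474 (0.174%) in classical monocyte-like cells and 0% in the other classes. An unadjusted p under 0.05 was given by 650 of 5745 genes in aerocyte-like, 606 of 7474 in classical and 719 of 6720 in nonclassical monocyte-like cells. It was given by 807 of 6794 in the Igha-led cluster, 494 of 12491 in alveolar and 375 of 5608 in interstitial macrophage-like cells. In B-like cells it was 816 of 11630, in blood endothelial-like cells 395 of 6405 and in fibroblast-like cells 581 of 8195.

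Nrp1 in aerocyte-like cells was 2492, 2397 and 2221 CPM with IgG1 and 1913, 1930 and 1884 CPM with ipilimumab. All 3 ipilimumab mice lay below the IgG1 mice, as 7.78% of the genes of this class did, and the log2 fold change was −0.31 ± 0.12 (SE, adjusted p = 0.275, edgeR). Ipilimumab replicate 1 had 137 aerocyte-like cells with a median of 1337 UMIs per cell. The other mice had 24 to 66 cells with medians of 6369 to 8817 UMIs. The aerocyte list itself was 5046 to 5605 and 4571 to 5013 CPM and the blood endothelial list 12038 to 12319 and 10378 to 11438 CPM. The T cell list was 0 to 8.8 and 57.1 to 159.9 CPM and the alveolar macrophage list 26.3 to 49.3 and 71.1 to 198.7 CPM. Markers of other cells thus moved with the treatment in the same cells, and their part in the difference was not tested.

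In classical monocyte-like cells Nrp1 was 73.1, 78.8 and 58.6 CPM with IgG1 and 49.6, 45.9 and 27.6 CPM with ipilimumab. These groups did not overlap either, as for 5.67% of genes, and the log2 fold change was −0.78 ± 0.24 (SE, adjusted p = 0.265, edgeR). The classical monocyte list was 2983 to 3727 and 1910 to 2423 CPM in the same cells, and the nonclassical list overlapped, at 575 to 1304 and 1094 to 1853 CPM. The plasmacytoid dendritic cell list was 184 to 215 and 124 to 136 CPM, the blood endothelial list 63.6 to 93.1 and 107 to 319 CPM, the secretory list 2.59 to 9.09 and 30.5 to 92.7 CPM and the fibroblast list 0 to 1.51 and 1.97 to 3.83 CPM, each without overlap. Their part in the Nrp1 difference was not tested.

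In the remaining classes the Nrp1 differences did not pass the test either. Nonclassical monocyte-like cells had 91.3, 40.5 and 52.1 CPM against 21.8, 42.1 and 44.3 CPM, with overlap, and −0.79 ± 0.34 (adjusted p = 0.408, edgeR). Alveolar macrophage-like cells had 85.5, 72.0 and 76.5 CPM against 76.2, 63.8 and 59.2 CPM, with overlap, and −0.24 ± 0.10. The Igha-led cluster had 18.6, 23.7 and 29.2 CPM against 58.8, 42.3 and 29.8 CPM, just without overlap, as for 9.48% of genes, and 0.88 ± 0.36 (adjusted p = 0.390, edgeR). Cell numbers in that cluster ran from 10 to 151 per mouse, and its alveolar macrophage markers from 1519 to 16739 CPM. In it the ILC2 list was 44.4 to 74.5 CPM with IgG1 and 230 to 254 CPM with ipilimumab, the B cell list 1187 to 3692 and 473 to 953 CPM and the plasmacytoid dendritic cell list 182 to 215 and 87.3 to 143 CPM, each without overlap, and their part in the difference was not tested. Fibroblast-like cells were at 0.32 ± 0.24, blood endothelial-like cells at −0.28 ± 0.25 and interstitial macrophage-like cells at −0.39 ± 0.31. These sizes depend on single mice. Without IgG1 replicate 1 the value in blood endothelial-like cells was −0.03 and in nonclassical monocyte-like cells −0.41, without IgG1 replicate 3 it was −0.05 in interstitial macrophage-like cells, and in fibroblast-like cells it ran from 0.17 to 0.54.

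The ligands and plexins gave no call in endothelium or fibroblasts. In aerocyte-like cells Sema3c was 323, 382 and 224 CPM with IgG1 and 392, 362 and 482 CPM with ipilimumab, a log2 fold change of 0.46 ± 0.20 (SE, adjusted p = 0.387, edgeR) with overlapping groups, and 0.22 without IgG1 replicate 3. Plxna4 was 574, 333 and 535 CPM and 401, 309 and 340 CPM, a log2 fold change of −0.48 ± 0.19 (SE, adjusted p = 0.337, edgeR), also with overlap. Plxna1 and Sema3f were at −0.38 ± 0.19 and −0.35 ± 0.18. In blood endothelial-like cells Sema3c was at −0.19 ± 0.29, Plxna4 at 0.39 ± 0.26, Plxna1 at −0.45 ± 0.33 and Sema3f at 0.17 ± 0.25. In fibroblast-like cells all 5 tested besides Nrp1 lay between 0.10 and 0.59. Nrp2 was at 0.10 ± 0.11 in alveolar macrophage-like cells, the narrowest of its errors, and at −0.57 ± 0.25 (adjusted p = 0.705, edgeR) in B-like cells, where its level was 2.57 to 5.18 CPM.

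**Figure D5:**
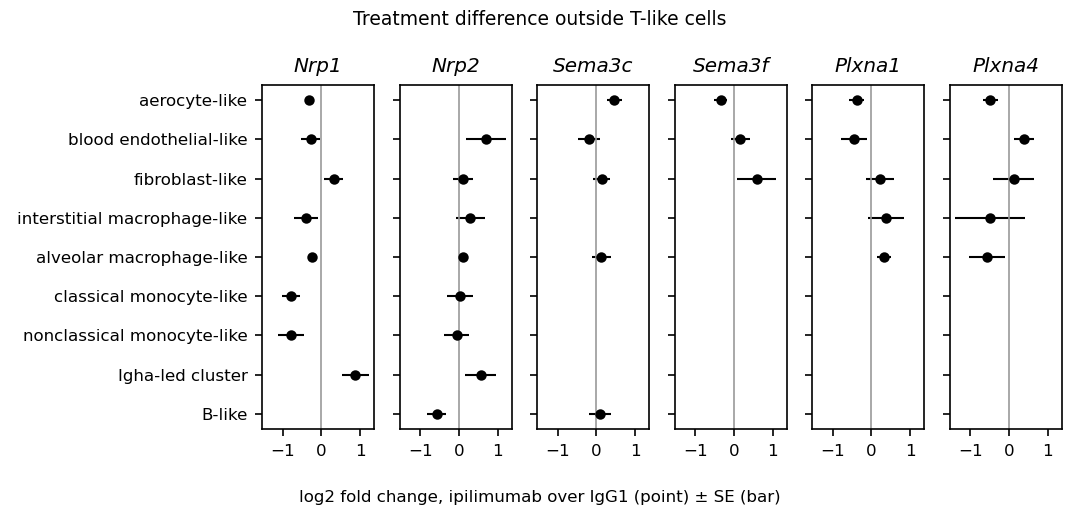
Difference between treatments (log2 fold change of ipilimumab over IgG1 ± SE) of each gene in the classes where it could be tested; T-like cells are left out. Nrp1 lies left of 0 in aerocyte-like, blood endothelial-like, both macrophage-like and both monocyte-like classes. It lies right of 0 in fibroblast-like cells and the Igha-led cluster, and none of the 34 values passed the test.

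The rest of the pathway gave no call between treatments. Outside T-like cells the 38 genes gave 173 tests with 0 called and 25 unadjusted p under 0.05, and in T-like cells 19 were tested with 0 called and 3 unadjusted p under 0.05. Those 3 were Plxnc1 at 0.53 ± 0.21 (adjusted p = 0.747, edgeR), a plexin of leukocytes, and Sema4b at 0.46 and Sema4d at −0.21. The median log2 fold change of the list in T-like cells was 0.13 against 0.00 over all genes. Of all genes in T-like cells, 776 of 12131 had an unadjusted p under 0.05. In NK-like cells 473 of 8817 did and in neutrophil-like cells 329 of 6122, and the counts of the other classes are given above. To place the list in the lung, 1 gene per role was taken by its number of UMIs, which says nothing of levels between genes. The class 3 ligand Sema3g had its highest mean in blood endothelial-like cells, 247 CPM, and the semaphorin Sema6a in aerocyte-like cells, 1327 CPM. The plexin Plxna2 (463 CPM) and the VEGF receptor Kdr (2373 CPM) were also highest in aerocyte-like cells. The VEGF ligand Vegfa was highest in blood endothelial-like cells, at 395 CPM, and the kinase Fyn, an intracellular partner, in nonclassical monocyte-like cells, at 1216 CPM.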

How the data were processed

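The deposited values are raw UMI counts of all barcodes, empty ones included, from the authors' alignment to mm10; Cell Ranger is given as version 7.0.0 in the submitters' processing notes, and the methods and the matrix header name other versions. The authors corrected ambient RNA and clustered after this step, and their cell names were not used here. Each library is 1 mouse, so p-values measure the spread between mice.

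The 6 genes, the gene lists and the gates were chosen with earlier results of these data known. Cells were called by a UMI threshold and, from 500 UMIs, by a profile test against ambient RNA at a false discovery rate of 0.01. Barcodes with fewer than 200 genes or over 10% mitochondrial UMIs, and the highest doublet scores at 0.8% per 1000 cells, were removed. Cells were clustered on 2000 variable genes and 10 principal components (20 neighbours, Leiden resolution 0.8, leidenalg 0.10.2), without the 6 genes, the 38 pathway genes and 8 genes the study reports. Clusters were named from the marker lists, cycling being taken as a state and not a name, and the second-best class taking the name where more of its markers led the cluster and its score was at least 0.8 of the best. Levels are CPM without further scaling.

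UMIs summed per mouse and class were tested with edgeR 4.0.16 (quasi-likelihood test, TMM factors, filterByExpr, R 4.3.3), with Benjamini-Hochberg adjustment over all genes of the class, and a call needed an adjusted p under 0.05 with a log2 fold change beyond 0.3 in either direction. Each class with at least 10 cells in every mouse had its own fit. T-like cells with and without a Nrp1 UMI were compared with the mouse as a block. Nrp1 in Foxp3-positive and Foxp3-negative CD4 cells was compared by an exact permutation test over mice on log2(CPM + 10) (scipy 1.17.1). DESeq2 1.42.0 was an alternative, as were other cell calls, doublets kept, 30 principal components, gates on T cell markers, no low-count filter and leaving out each mouse. The fits were tested on simulated data. Genes named were the 6, the most expressed or called pathway genes per role, all regulatory list genes, the 15 called genes with the smallest p in each direction and the 5 genes most correlated with Nrp1 and Nrp2. Shares of cells and UMI counts carry counting error as well as the spread between mice.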

Additional observations from a re-analysis of the deposited data

Results flagged for a closer look

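Nrp1 was lower with ipilimumab in aerocyte-like and classical monocyte-like cells and higher in T-like cells and the Igha-led cluster. In each of these the 3 ipilimumab and the 3 IgG1 mice did not overlap. Of all genes, 7.78% in aerocyte-like and 5.67% in classical monocyte-like cells likewise separated downward. Upward, 5.37% did in T-like cells and 9.48% in the Igha-led cluster. The log2 ratio of the mean CPM, ipilimumab over IgG1, was −0.31 in aerocyte-like cells and −0.77 in classical monocyte-like cells, against 0.95 in T-like cells and 0.87 in the Igha-led cluster. These 4 pairings were noticed because every mouse of one treatment lay on the same side in each cell type, and the difference between the cell types was not tested. Nrp1 was singled out for its T cell values, and neither the aerocyte-like nor the classical monocyte-like nor the Igha-led values passed the test on their own.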

How the results depend on the processing

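The log2 ratio of Nrp1 in T-like cells, 0.95, was 0.65 with T cells taken by a strict marker gate, which kept as few as 15 cells in a mouse, and 0.68 without the cells of more than 5 Nrp1 UMIs; it was 0.84 to 1.07 leaving out 1 mouse. The Foxp3 difference was 1.21 to 1.43 leaving out 1 mouse, where 5 mice cannot give a p below 0.0625. Between cells with and without Nrp1, 3263 genes were called, 2769 to 3098 leaving out 1 mouse and 36 within the Ctla4-led cluster alone, which has fewer cells. For the pathway list outside T-like cells DESeq2 called 1 gene (Vegfa in interstitial macrophage-like cells) and the fit without a low-count filter 11, and leaving out 1 mouse called 0 to 1, the 1 being Vegfc in nonclassical monocyte-like cells without IgG1 replicate 3; in T-like cells the fit without a filter called 1 (Plxnc1). There were 119 alternatives for 11 single-gene values between treatments outside T-like cells, all of them uncalled in the main fit. Of these alternatives 118 kept direction and stayed uncalled, though sizes changed. Nrp1 in interstitial macrophage-like cells turned from −0.39 to 0.67 with cells called by the UMI threshold alone, and the cause was not tested. The strict marker gate left too few cells for the Foxp3 and Nrp1-positive comparisons and was not run there. Alternatives on the Ctla4-led cluster, the looser marker gate, few markers of other types, unclear sub-clusters, cells over 5 UMIs and the shares of the difference leaving out 1 mouse were chosen after seeing the data.

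Replicate numbers are shared between the groups, but mice with the same number did not deviate together (Pearson's r −0.23 to 0.24 over 36 pairs, 2 above 0.1, all pairs above it in 0 of 12 classes). A fit with the replicate number as a block called 0 of the 6 genes and 0 of the pathway genes outside and 0 in T-like cells, so no call among these genes changed. Over all genes it called 37 instead of 49 in aerocyte-like cells, 7 instead of 13 in classical monocyte-like cells and 2 instead of 0 in T-like cells. Depth limits Sema3f (0 to 9 UMIs per mouse), Plxna4 (0 to 10) and Nrp2 (9 to 26) in T-like cells.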

Other observations

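Within the fibroblast-like class the levels of both neuropilins differed between gates. Fibroblasts with Pi16, Dpt or Lum, genes of adventitial and matrix-producing fibroblasts, had 170 to 309 CPM of Nrp1 and 57.3 to 141 CPM of Nrp2 in the 6 mice, from 32 to 160 cells per mouse. The fibroblast-like cells without these genes and without pericyte or smooth muscle markers had 0 to 110 CPM of Nrp1, 237 to 761 CPM of Nrp2 and 122 to 518 CPM of Plxna4, so that neither range of Nrp1 or Nrp2 overlapped between these 2 gates. The second gate holds 3 to 64 cells per mouse, and its identity was not determined.

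Within endothelium, cells with Car4 or Ednrb had 1497 to 2016 CPM of Nrp1 and the other blood endothelial cells 334 to 575 CPM. Sema3c had the reverse order, 515 to 1174 CPM and 1528 to 3037 CPM. Endothelial cells with a lymphatic marker were 1 to 8 per mouse and too few to describe.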
